A study of Mus musculus with 10 samples.

Results

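Complement genes were compared between mouse tracheal epithelial organoids labelled M3-CKO, a Mettl3 knockout, and organoids labelled Ctrl. The set holds 9 genes of the 22457 in the deposited table, taken by symbol: the proteases C1s1, C1ra and Cfb, the components C4b and C3, the fluid-phase regulators Cfi and Serping1, and the membrane regulators Cd55 and Cd59a. The family was chosen by the rise of C1s1, the largest in M3-CKO against Ctrl among genes called different with a mean of at least 5 CPM (rank 1 of 319). The lead was narrow, at a log2 fold change of 5.234 against 5.231 for the club cell gene Scgb1a1. CPM are counts scaled to library size. The values of C1s1 are therefore a description without a test. All 9 genes have a row, and 7 of them held enough counts to be tested.

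The libraries fall into 3 of organoids labelled M3-CKO and 3 of organoids labelled Ctrl, read by RNA-seq after 14 days of culture of mouse (Mus musculus) tracheal basal cells, from which the lining renews itself. The series title gives M3-CKO as a knockout of Mettl3, the catalytic subunit of the enzyme complex that writes N6-methyladenosine on mRNA. The Cre line, the deleted part of the gene, the genotype of the Ctrl mice and the age of the animals are not stated in the labels. Both groups were grown in Matrigel, a basement membrane gel, in a medium with insulin, transferrin, cholera toxin, epidermal growth factor, bovine pituitary extract, retinoic acid, serum and the inhibitors A83-01 and DMH-1, and a ROCK inhibitor at the start. The labels also describe a differentiation medium without saying when it was used. Whether replicates came from different mice or cultures is not stated, and the p-values then reflect library-to-library spread, which may be technical.

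Complement is a cascade of secreted proteases and the proteins they cleave. C1r activates C1s within the C1 complex, C1s cleaves C4 and C2, and the resulting enzyme cleaves C3, the component on which the classical, lectin and alternative routes converge. Factor B supplies the protease of the alternative route, while C1 inhibitor, factor I and the membrane proteins CD55 and CD59 restrain the cascade at successive steps. The liver makes most of the circulating proteins, and airway epithelium is known to make C3 and other components locally.

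Library totals ran from 8906375 to 10485922 counts, so 10 CPM rest on 87.6 to 103.6 counts. Across the 13528 tested genes, edgeR's quasi-likelihood test called 1.74% higher and 1.16% lower in M3-CKO at a Benjamini-Hochberg adjusted p under 0.05. M3-CKO replicate 3 stood apart: the correlation of its log2 CPM across genes with M3-CKO replicates 1 and 2 was 0.919 and 0.908, against 0.985 between those libraries. With Ctrl replicates 1 to 3 it was 0.922, 0.925 and 0.919, so that M3-CKO replicate 3 lay no closer to its own group than to Ctrl. The Ctrl libraries correlated with each other at 0.967 to 0.977. Mettl3 itself, the targeted gene, had 11.1, 10.3 and 9.87 CPM in the M3-CKO libraries, against 14.96, 17.0 and 18.9 CPM in Ctrl (log2 fold change -0.70, SE 0.21, edgeR adjusted p = 0.12). Epithelial genes were abundant in every library. The epithelial adhesion genes Epcam and Cdh1 ran from 433.6 to 603.2 and from 986.2 to 1406 CPM in M3-CKO, and from 375.0 to 462.1 and from 1151 to 1353 CPM in Ctrl. Of the 10 epithelial markers, edgeR called the basal keratins Krt5 (log2 fold change -1.82, adjusted p = 0.024), Krt15 (-2.23, 0.0083) and Krt14 (-2.13, 0.037) lower in M3-CKO and the club cell gene Scgb1a1 (5.23, 0.033) higher. Krt5 ran from 95.6 to 152.5 CPM in M3-CKO and from 307.7 to 501.8 CPM in Ctrl, and Krt15 from 165.2 to 263.8 CPM in M3-CKO and from 947.2 to 1078 CPM in Ctrl. The part of these 4 markers in the complement values was not tested.

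C1s1 and C1ra encode the proteases of the C1 complex, and both stood higher in every M3-CKO library than in any Ctrl library. Of all tested genes 13.7% did so. C1s1, the enzyme that cleaves C4 and C2, had 339, 164 and 231 counts in M3-CKO replicates 1 to 3, against 7, 9 and 2 counts in Ctrl. In CPM these are 32.7, 18.7 and 23.5 in M3-CKO, against 0.764, 0.952 and 0.225 in Ctrl. The gene was thus near the limit of counting in Ctrl organoids and well counted in each M3-CKO library, with a mean 38.6 times that of Ctrl. Its log2 fold change was 5.23 (SE 0.47).

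C1ra, which encodes the C1r protease that activates C1s, reached 5.60, 3.88 and 4.27 CPM in M3-CKO, against 1.31, 2.64 and 1.46 CPM in Ctrl. The groups did not overlap, but Ctrl replicate 2 came close to the lowest M3-CKO library. Its log2 fold change was 1.34 (SE 0.42) and was not called by edgeR (adjusted p = 0.13). None of 13 alternatives called it. The edgeR adjusted p ran from 0.052 without M3-CKO replicate 3 to 0.39 without M3-CKO replicate 1, and was 0.063 by DESeq2. As a description, the count of C1s1 within each library was 5.84, 4.82 and 5.50 times that of C1ra in M3-CKO, against 0.583, 0.360 and 0.154 times in Ctrl. The scaling of libraries does not enter this ratio. Its gap between the groups is no separate result, because the family was chosen by the rise of C1s1. The Ctrl ratios rest on 7, 9 and 2 counts of C1s1.

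**Figure D1:**
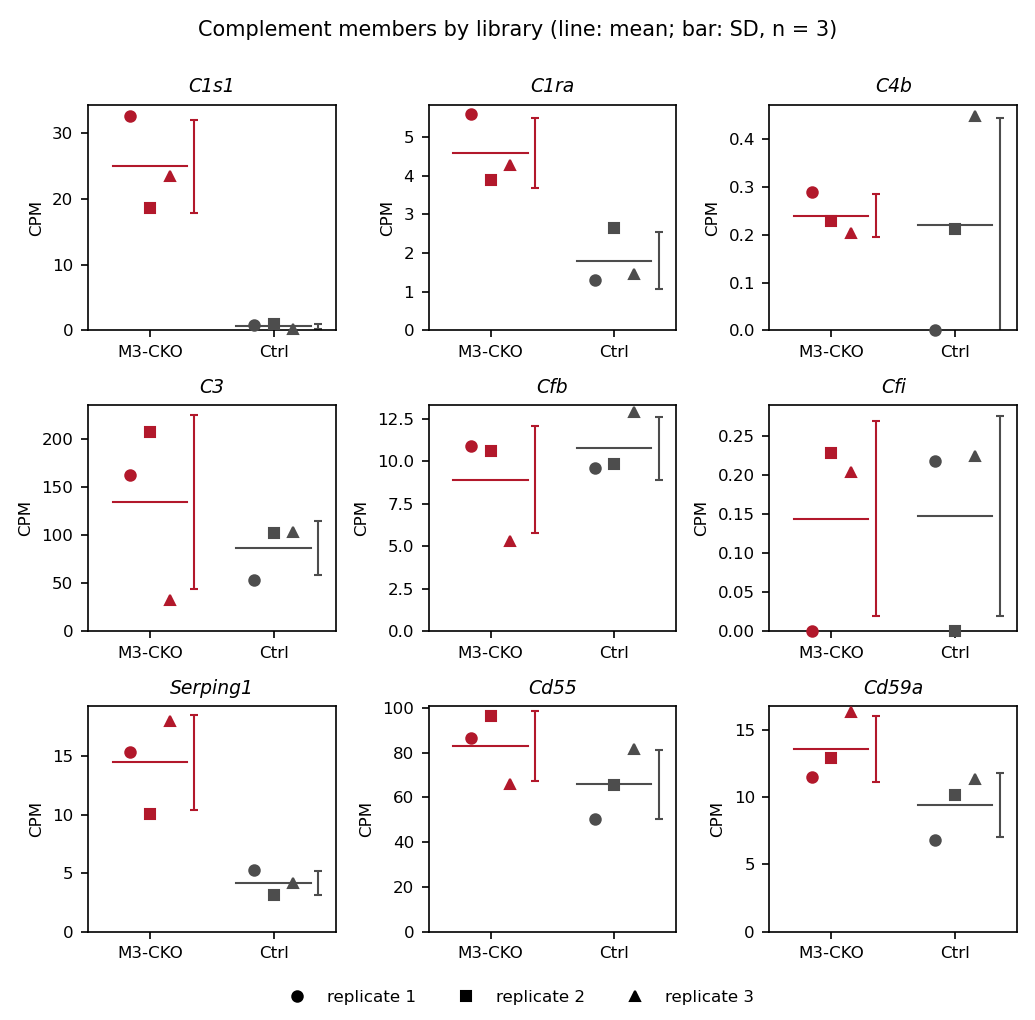
Normalised levels (CPM, each panel on its own linear axis from 0) of the 9 complement members in M3-CKO and Ctrl libraries. Symbols mark the replicates, lines the mean and bars the SD (n = 3). C1s1, C1ra, Serping1 and Cd59a are higher in all M3-CKO libraries than in any Ctrl library, as are 13.7% of all tested genes. C3 is split, with M3-CKO replicate 3 at 32.5 CPM below every other library. C4b and Cfi rest on 4 counts or fewer per library.

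Another gene of the same chromosomal block, C1rl, rose in M3-CKO organoids. C1rl, a secreted protease related to C1r and not among the 9 members, lies beside C1ra on chromosome 6. It stood at 23.8, 19.97 and 20.6 CPM in M3-CKO, against 2.62, 5.29 and 3.93 CPM in Ctrl. The M3-CKO mean was 5.44 times that of Ctrl, and the spread within either group was small beside the gap. The log2 fold change of 2.44 (SE 0.30) passed the edgeR test (adjusted p = 0.019). The call was kept without M3-CKO replicate 3 (adjusted p = 0.0013) and lost without any 1 of the other 5 libraries (adjusted p 0.073 to 0.14). The closest copies in the block, C1rb and C1s2, had 1 count and 4 counts over all 6 libraries, so few reads were assigned to them. How reads matching several copies were treated is not stated, and C1s1 and C1ra could hold reads of these copies or lack reads shared with them.

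The gene order of the block, from RefSeq on GRCm38.p6, is C1rl, C1ra, C1s1, C1rb and C1s2. The 5 nearest protein-coding genes with a row on each side were not called. Of these 10 genes 7 were tested, their log2 fold changes lay between -0.26 and 0.13, and edgeR called 0 of them (0 at an unadjusted p under 0.05, 0 by DESeq2 and 0 without M3-CKO replicate 3). Nearest to the block were Lpcat3, a phospholipid acyltransferase gene, at 0.05 (SE 0.22), and Pex5, the peroxisomal import receptor gene, at 0.13 (SE 0.21), the closest tested gene on the other side. The flanking genes were looked up after the values of C1rl had been seen.

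**Figure D2:**
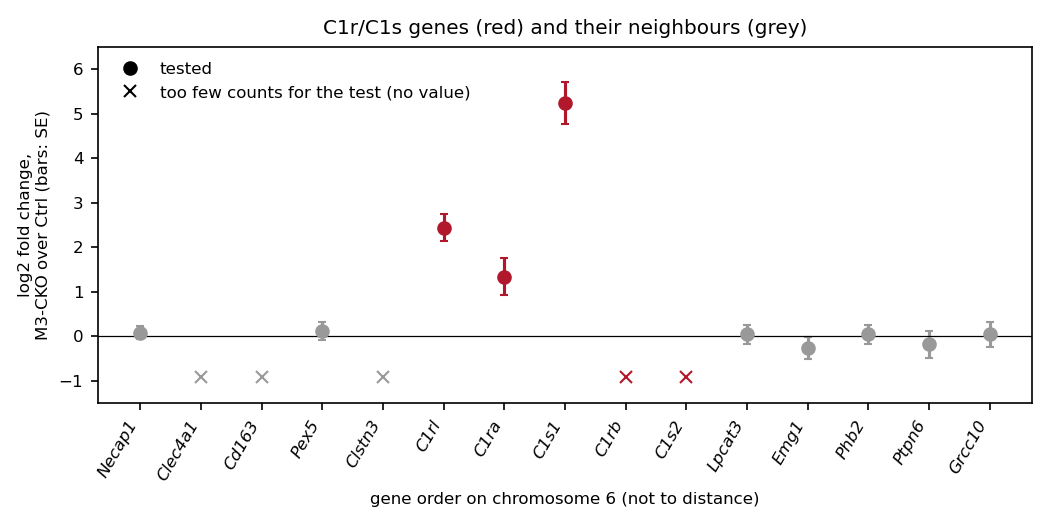
Log2 fold change (M3-CKO over Ctrl, bars are standard errors) of the C1r/C1s genes in red and the 5 nearest genes with a row on each side in grey, in the order of the genes on chromosome 6. Crosses at the bottom mark genes with too few counts for the test. C1rl (2.44), C1ra (1.34) and C1s1 (5.23) stand above flanking genes that lie between -0.26 and 0.13.

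The start regions of these 3 genes are shown because the genes lie side by side and stood higher in the same libraries, with that of C3, which did not follow them in M3-CKO replicate 3, for comparison. The sequences are those of RefSeq on GRCm38.p6, 250 bases before to 50 after the annotated start, read 5′ to 3′ on the strand of the gene. RefSeq windows were at hand for 5 of the 9 members, and those of C4b, Cfb, Cfi and Serping1 are named only. C1s1 has a pair of annotated starts, and the more upstream window is printed. Capitals mark every match on either strand to the letters searched: GAAANNGAA (interferon-stimulated response element, ISRE), TTCNNNGAA (STAT binding, GAS), the NF-kB consensus, TTGCNNAA (C/EBP) and TGANTCA (AP-1).
C1s1 (chr6:124542310-124542609, minus strand): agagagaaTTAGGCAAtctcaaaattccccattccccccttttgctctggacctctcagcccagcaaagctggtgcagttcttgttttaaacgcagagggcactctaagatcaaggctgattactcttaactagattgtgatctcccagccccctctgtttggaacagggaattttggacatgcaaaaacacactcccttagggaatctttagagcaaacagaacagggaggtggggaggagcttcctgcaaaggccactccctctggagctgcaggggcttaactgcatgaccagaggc
C1ra (chr6:124512371-124512670, plus strand): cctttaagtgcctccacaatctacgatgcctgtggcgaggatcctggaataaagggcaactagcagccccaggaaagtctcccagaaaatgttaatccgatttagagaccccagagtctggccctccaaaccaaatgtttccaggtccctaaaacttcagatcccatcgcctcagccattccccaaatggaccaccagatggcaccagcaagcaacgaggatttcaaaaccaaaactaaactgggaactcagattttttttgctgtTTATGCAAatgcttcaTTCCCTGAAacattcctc
C1rl (chr6:124492863-124493162, plus strand): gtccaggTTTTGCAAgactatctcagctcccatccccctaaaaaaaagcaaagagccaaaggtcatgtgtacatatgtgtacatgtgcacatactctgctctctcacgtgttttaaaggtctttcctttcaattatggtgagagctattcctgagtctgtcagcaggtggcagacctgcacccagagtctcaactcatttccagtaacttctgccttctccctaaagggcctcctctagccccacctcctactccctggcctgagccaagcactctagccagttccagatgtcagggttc
C3 (chr17:57228087-57228386, minus strand): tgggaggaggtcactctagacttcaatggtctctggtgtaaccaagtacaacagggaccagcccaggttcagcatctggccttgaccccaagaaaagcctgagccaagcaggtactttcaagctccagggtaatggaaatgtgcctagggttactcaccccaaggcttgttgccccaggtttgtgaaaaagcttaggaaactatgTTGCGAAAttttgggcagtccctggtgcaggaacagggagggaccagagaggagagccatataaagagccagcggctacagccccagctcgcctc

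The C/EBP letters occur once in each of the 4 printed windows, at base 9 of C1s1, 267 of C1ra, 8 of C1rl and 206 of C3, counted from the 5′ end of the window. Of 32851 RefSeq windows of this length 10.8% hold them. The second C1s1 window, which starts further downstream, holds none, and neither do those of Cd55 and Cd59a. The GAS letters occur once in C1ra, at base 283, and in none of the other printed windows (8.30% of all windows). ISRE letters (8.56% of all windows) were found in Cd59a alone among the members with a window, and the NF-kB (8.46%) and AP-1 (7.81%) letters in no member. A match is a run of letters and not a measured binding site. The C1ra window shares a run of 34 bases with that of its copy C1rb, while the longest run that the C1s1 window shares with C1s2 is 8 bases. The C1rb window also holds the C/EBP letters, at base 116, and the GAS letters, at base 132, although C1rb had 1 count over all libraries. The C1s2 window holds no match.

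Serping1, which encodes C1 inhibitor, the serpin that inactivates C1r and C1s, rose in M3-CKO organoids. It stood at 15.4, 10.0 and 18.0 CPM in M3-CKO, against 5.24, 3.17 and 4.16 CPM in Ctrl. The lowest M3-CKO library lay clear of the highest Ctrl library, and the means were 14.5 ± 4.05 and 4.19 ± 1.03 CPM (SD, n = 3 each). The log2 fold change of 1.79 (SE 0.33) passed the edgeR test (adjusted p = 0.038; DESeq2 adjusted p = 9.6e-05). It was 1.60 without M3-CKO replicate 3 (adjusted p = 0.0088), and the call was lost without any 1 of the other 5 libraries (adjusted p 0.075 to 0.17) and by limma-voom (adjusted p = 0.052). As a description, C1s1 counts were 2.13, 1.86 and 1.30 times those of Serping1 in M3-CKO, against 0.146, 0.300 and 0.0541 times in Ctrl.

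Of the 8 members other than C1s1, 6 were tested and 1, Serping1, was called higher, with 0 called lower. Over all tested genes 1.74% were called higher and 1.16% lower. The median log2 fold change of the 6 was 0.58, against 0.02 over all tested genes. Without M3-CKO replicate 3, 2 of the 6 were called higher, C3 being the other, in a fit that called 13.7% of all its tested genes higher.

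C3, the component shared by all routes of activation, was split among the M3-CKO libraries. Its level was 162.6, 207.1 and 32.5 CPM in M3-CKO, against 53.4, 101.5 and 103.2 CPM in Ctrl. Replicates 1 and 2 lay above every Ctrl library and replicate 3 below every one. The log2 fold change of 0.64 (SE 0.59, edgeR adjusted p = 0.60) became 1.10 (SE 0.26, adjusted p = 0.019) without M3-CKO replicate 3. That fit leaves a pair of M3-CKO libraries that lie close together across all genes.

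Cfb, the protease of the alternative route, was in no M3-CKO library above the highest Ctrl library. It stood at 10.9, 10.6 and 5.29 CPM in M3-CKO, against 9.61, 9.83 and 12.9 CPM in Ctrl (log2 fold change -0.27, SE 0.33, edgeR adjusted p = 0.71). Replicate 3 was again the lowest, and without it the log2 fold change was -0.01 (SE 0.23). C3 counts were 14.9, 19.5 and 6.15 times those of Cfb in M3-CKO, against 5.56, 10.3 and 7.99 times in Ctrl (two-sided exact permutation p = 0.3 on the log2 ratio; 3 libraries against 3 cannot go below 0.1).

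C4b, the substrate of C1s, and Cfi, the factor I protease that degrades activated C3 and C4, were at the limit of counting. C4b had 3, 2 and 2 counts in M3-CKO and 0, 2 and 4 in Ctrl. Cfi had 0, 2 and 2 counts in M3-CKO and 2, 0 and 2 in Ctrl. Neither was tested, and no difference was detectable at this depth, where 3 counts correspond to 0.290 to 0.342 CPM. C4a, a close copy that RefSeq lists as a transcribed pseudogene and with which C4b can exchange reads, had 8, 12 and 13 counts in M3-CKO and 5, 5 and 15 in Ctrl (log2 fold change 0.33, SE 0.62, edgeR adjusted p = 0.82). C2, the other substrate of C1s, had at most 4 counts in a library. The genes of the C1q chains, the recognition part of C1, have no row, so no value can be given for them.

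Neither membrane regulator was called. Cd55, which dissociates the enzymes that cleave C3, stood at 86.6, 96.2 and 66.0 CPM in M3-CKO, against 50.2, 65.7 and 81.4 CPM in Ctrl. The groups overlapped (log2 fold change 0.33, SE 0.23, edgeR adjusted p = 0.45). Cd59a, which blocks assembly of the membrane attack complex, stood at 11.5, 12.9 and 16.3 CPM in M3-CKO, against 6.77, 10.1 and 11.3 CPM in Ctrl. All M3-CKO libraries lay above all Ctrl libraries, the nearest by a narrow margin, but edgeR did not call the log2 fold change of 0.52 (SE 0.28; adjusted p = 0.35). Such a separation was common, since 27.1% of all tested genes separated the groups fully and 13.7% had every M3-CKO library on top. The copies Cd55b and Cd59b had at most 1 and 5 counts in a library.

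**Figure D3:**
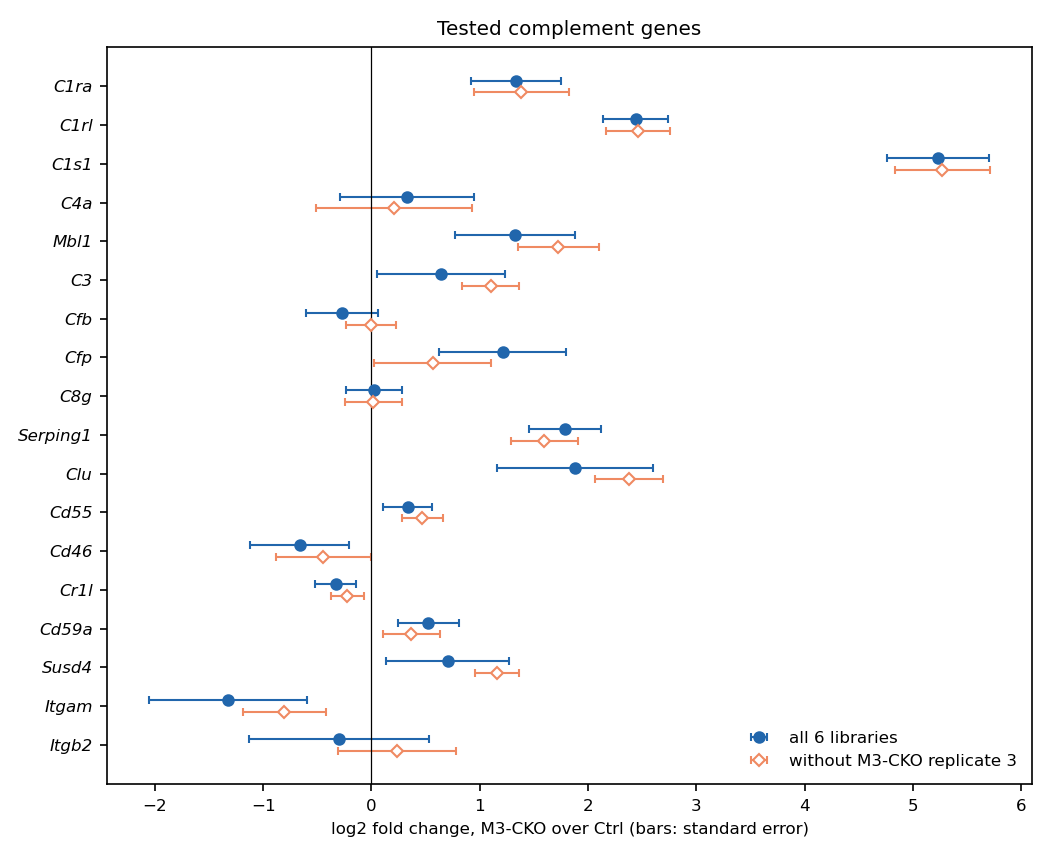
Log2 fold change (M3-CKO over Ctrl, bars are standard errors) of 18 of the 19 tested complement genes with all 6 libraries (filled circles) and without M3-CKO replicate 3 (open diamonds). For each of C1s1, C1rl, C1ra and Serping1 the values of the fits lie close together. Without M3-CKO replicate 3, Itgb2, Itgam, Clu, C3, Susd4 and Mbl1 move up most, and Cfp moves down most.

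Beyond the members, a textbook list of 48 further complement genes had 27 rows and 12 tested genes. The table holds no gene at 0 in all libraries, and the 21 listed genes with no row have no value here. Of these 12, C1rl alone was called higher by edgeR and 0 were called lower. An unadjusted p under 0.05 was found for 3 of the 12, against 2774 of all 13528 tested genes. DESeq2 called 1 of the 12 higher, C1rl, in a fit that called 6.05% of all tested genes higher. The median log2 fold change of the 12 was 0.28, against 0.02 over all tested genes. Together with the members other than C1s1, 2 of 18 tested complement genes were called higher by edgeR, C1rl and Serping1, against 1.74% of all tested genes.

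In the lectin route, Masp1, a protease homologous to C1r and C1s that works with mannose-binding lectins, was counted in M3-CKO organoids alone. It had 13, 9 and 9 counts in M3-CKO, against 0 in each Ctrl library. Pooled over the group this is 1.07 CPM, at least 9.82-fold higher than the floor set by 3 counts summed over Ctrl. It was too low for the filter of the main test, and without that filter its adjusted p was 0.038 by edgeR, in a fit that called 2.03% of 22457 genes higher. The lectin Mbl1 stood at 5.12, 6.05 and 1.53 CPM in M3-CKO, against 1.86, 1.27 and 1.91 CPM in Ctrl, so that replicate 3 lay within the Ctrl range (log2 fold change 1.33, SE 0.56, edgeR adjusted p = 0.23). Fcna, a ficolin, had 5 counts or fewer in every library.

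In the alternative and terminal routes no gene outside the members was called. Cfp, which encodes properdin, the stabiliser of the alternative convertase, stood at 2.12, 2.28 and 5.90 CPM in M3-CKO, against 1.20, 2.33 and 0.899 CPM in Ctrl (log2 fold change 1.21, SE 0.59, edgeR adjusted p = 0.30). Its highest value came from replicate 3, the reverse of C3. C8g, a chain of terminal component C8, stood at 7.54 ± 0.785 CPM in M3-CKO and 7.43 ± 0.965 CPM in Ctrl (SD, n = 3 each). C7 and Hc, the gene of C5, had 2 counts or fewer in every library.

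Among the soluble regulators, clusterin, which binds the terminal complex and has other roles as a chaperone, varied most. Clu stood at 1155, 732.9 and 109.3 CPM in M3-CKO, against 177.9, 114.0 and 251.4 CPM in Ctrl. Replicates 1 and 2 lay far above the Ctrl range and replicate 3 below it (log2 fold change 1.88, SE 0.72, edgeR adjusted p = 0.20). C4bp, a C4-binding regulator, had 8 counts or fewer in every library.

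Among the other membrane proteins, Susd4, a complement inhibitor, repeated the split, at 29.5, 37.4 and 6.001 CPM in M3-CKO, against 17.9, 12.9 and 13.9 CPM in Ctrl (log2 fold change 0.70, SE 0.57, edgeR adjusted p = 0.54). Cr1l, which encodes the rodent C3 regulator Crry, was the only tested complement gene whose M3-CKO libraries all lay below the lowest Ctrl library, at 28.6, 29.9 and 22.7 CPM against 36.8, 35.2 and 29.99 CPM, and it was not called (log2 fold change -0.33, SE 0.19, adjusted p = 0.37). Cd46, a cofactor of factor I, reached a log2 fold change of -0.66 with SE 0.46 (adjusted p = 0.47). Itgam and Itgb2, the chains of complement receptor CR3, stood at 3.77, 5.25 and 0.407 CPM and at 2.41, 1.26 and 0.102 CPM in M3-CKO, against 4.70, 9.30 and 9.55 CPM and 0.983, 2.01 and 1.69 CPM in Ctrl. Neither was called (adjusted p = 0.36 and 0.88), and the anaphylatoxin receptor C3ar1 had 4 counts or fewer in every library.

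**Figure D4:**
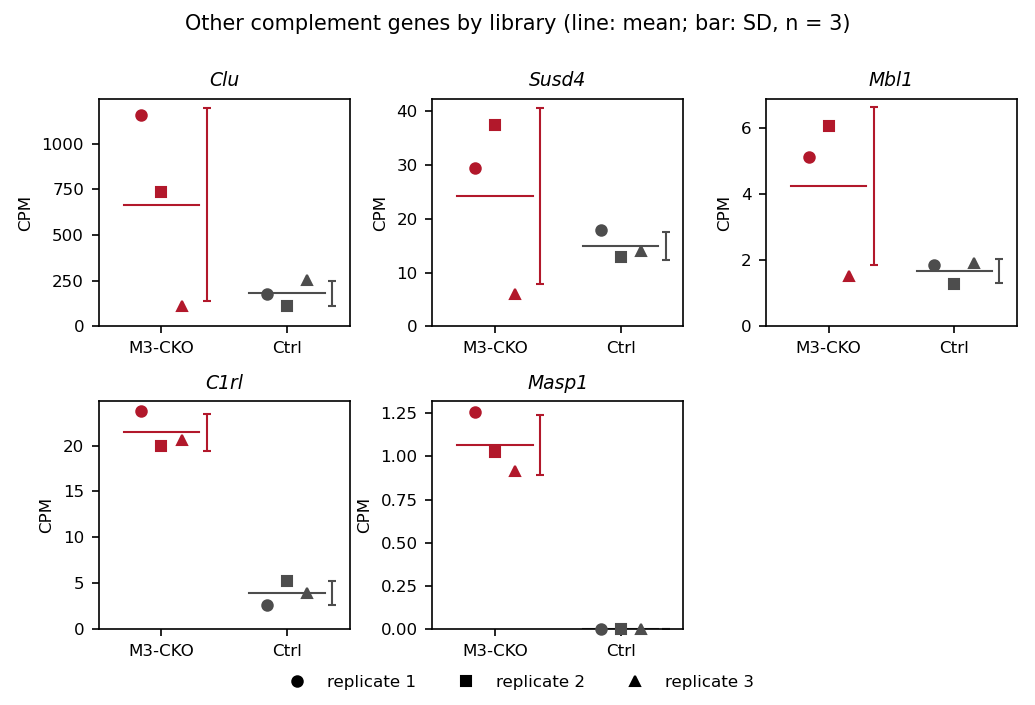
Normalised levels (CPM, each panel on its own linear axis from 0) of 5 complement genes outside the members in M3-CKO and Ctrl libraries, with replicates as symbols, the mean as a line and the SD as a bar (n = 3). Clu, Susd4 and Mbl1 are high in M3-CKO replicates 1 and 2 and low in replicate 3, whereas C1rl and Masp1 are higher in all 3 M3-CKO libraries than in any Ctrl library. Of all tested genes 13.7% are so, and Masp1 was too low for the main test.

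The place of M3-CKO replicate 3 thus differed from one complement gene to another. For C1s1, C1ra and C1rl it lay between replicates 1 and 2, at 91.3%, 90.1% and 94.4% of their mean. For Serping1, Cd59a and Cfp it lay above both, at 141.8%, 133.5% and 267.7%. For Cd46, Cd55 and Cr1l it lay at 56.9%, 72.2% and 77.6%, and for C8g and C4a at 99.8% and 123.5%. For Clu, C3, Susd4, Mbl1 and Cfb it lay at 11.6%, 17.6%, 17.95%, 27.3% and 49.2%. In 8 of the 19 tested complement genes, among them those 5, Itgam and Itgb2, replicate 3 was below 50% of that mean, against 13.6% of all tested genes. Leaving this library out, edgeR called 4 of the 12 tested genes outside the members higher, namely C1rl, Clu (log2 fold change 2.38, adjusted p = 0.0018), Susd4 (1.16, adjusted p = 0.0056) and Mbl1 (1.72, adjusted p = 0.013), in a fit that called 13.7% of all its tested genes higher. Other epithelial genes set replicate 3 apart as well. Krt8, a keratin of luminal cells, had 578.9, 585.0 and 251.2 CPM in the M3-CKO libraries, against 385.1, 321.6 and 429.2 CPM in Ctrl. Scgb1a1, the club cell secretoglobin, had 83.2, 37.5 and 358.5 CPM there, against 5.57, 4.34 and 2.81 CPM in Ctrl. Whether the makeup of the organoids had a part in the low C3 and Clu of replicate 3 was not tested. In bulk RNA, fewer cells of a type and less RNA per cell cannot be told apart.

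Factors known to induce complement genes were measured as a separate list of 17, of which 13 were tested. Of these, edgeR called 1 higher and 0 lower, against 1.74% and 1.16% of all tested genes. An unadjusted p under 0.05 was found for 5 of the 13, against 2774 of all 13528 tested genes. DESeq2 called 3 of the 13, against 1402 of all 13528. Without M3-CKO replicate 3, edgeR called 3 higher and 2 lower, in a fit with 1913 of 13930 genes called higher and 1570 lower. The gene called with all 6 libraries was Tnf, an inflammatory cytokine. It stood at 33.2, 32.9 and 7.32 CPM in M3-CKO, against 4.26, 3.17 and 3.37 CPM in Ctrl (log2 fold change 2.76, SE 0.56, edgeR adjusted p = 0.048). Its call was kept without M3-CKO replicate 3 (adjusted p = 2e-04) and lost without any 1 of the other 5 libraries (adjusted p 0.13 to 0.20), by limma-voom (0.15) and with the replicate number as a block (0.096). Relb, a subunit of NF-kB, stood at 41.2, 44.0 and 19.3 CPM in M3-CKO, against 13.0, 16.4 and 16.3 CPM in Ctrl (log2 fold change 1.20, SE 0.32, adjusted p = 0.092). Il6ra, a receptor chain for interleukin-6, lay in the other direction, at 4.54, 5.82 and 3.46 CPM in M3-CKO, against 8.95, 9.94 and 20.1 CPM in Ctrl (log2 fold change -1.496, SE 0.40, adjusted p = 0.088). Relb and Il6ra were chosen after their values were known. The other NF-kB subunit genes of the list are given beside Relb, and none was called. Nfkb1, Nfkb2 and Rela had log2 fold changes of -0.125 (SE 0.16), -0.03 (SE 0.22) and 0.22 (SE 0.18), with edgeR adjusted p of 0.71, 0.96 and 0.55. Tnf and Relb stood well above the Ctrl range in replicates 1 and 2 and closer to it in replicate 3. Stat3, which carries interleukin-6 signals, had a fitted log2 difference of -0.45 (SE 0.15), and Irf1, an interferon response factor, 0.20 (SE 0.22). Those of Cebpb and Cebpd, of the C/EBP family, were 0.33 (SE 0.22) and -0.28 (SE 0.31). The adjusted p of these 4 genes lay between 0.14 and 0.67 (chosen after their values were seen). The cytokine genes Il6 and Il1b had at most 2 and 5 counts in a library. The list's median log2 fold change was 0.06, against 0.02 over all tested genes.

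Fibroblasts, macrophages and hepatocytes also make complement proteins, and their markers were measured beside the members. Of 9 fibroblast markers 4 had a row, summing to 1.35 to 3.87 CPM in M3-CKO and 3.39 to 12.7 CPM in Ctrl. Pdgfra made up most of these sums and was not called (log2 fold change -2.04, SE 0.55, edgeR adjusted p = 0.092; a gene picked with its values known). Col1a1, the collagen of fibroblasts, had at most 2 counts in a library, and Vim at most 8. Of 12 macrophage and leukocyte markers 6 had a row. Without Lyz2 and Cd68, which epithelium can express, 4 remained and summed to 1.22 to 6.95 CPM in M3-CKO and 4.91 to 10.3 CPM in Ctrl, most of it Itgam in Ctrl. Csf1r, a macrophage receptor gene too low for the filter, had 33, 12 and 6 counts in M3-CKO, against 2, 7 and 6 in Ctrl. The leukocyte gene Ptprc had 0 counts in M3-CKO and 2 counts in all in Ctrl. The 6 endothelial markers had 2 rows with 2 counts or fewer per library, and the 6 hepatocyte markers had no row. The part of the fibroblast and immune markers in the complement values was not tested.

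Over the 6 libraries, the genes with the pattern most like C1s1 by Pearson correlation of log2 CPM were Mblac1 (0.998), Ggta1 (0.996), Msmo1 (0.995), Hyal2 (0.995) and Rad9a (0.994). The 6 points fall into the groups, and in all 5 genes Ctrl replicate 3 was the lowest library, as it was for C1s1. The changes were far smaller than that of C1s1. Ggta1, a galactosyltransferase gene, stood at 153.7, 142.2 and 160.1 CPM in M3-CKO, against 73.0, 75.9 and 63.2 CPM in Ctrl. Hyal2, a hyaluronidase gene, stood at 82.0, 82.5 and 81.7 CPM in M3-CKO, against 37.3, 40.3 and 30.4 CPM in Ctrl.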

How the data were processed

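RNA-seq was available for 6 libraries. The deposited values are raw counts of reads or fragments per gene, whole numbers with no normalization. Trim Galore, HISAT2, featureCounts and genome build mm39 are named, per the submitters' processing notes. Their versions, the annotation and the settings for strand and for multi-mapping reads are not stated there, so close copies, overlapping and antisense genes are uncertain. Of the columns, all 6 were used. The 4 libraries of m6A immunoprecipitation and input are not analysed here.

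Differential expression was tested on the counts with edgeR 4.0.16 in R 4.3.3 (filterByExpr, TMM factors 0.956 to 1.05, glmQLFit and glmQLFTest, two-sided, no covariate), M3-CKO over Ctrl. The filter kept 13528 genes, and those with a Benjamini-Hochberg adjusted p under 0.05 were called. The SE is the size of the log2 fold change over the square root of F. Precision depends on depth and on the spread between libraries, and floors of 3 counts cover counting error only. Alternatives used DESeq2 1.42.0, limma 3.58.1 voom, other scalings, no filter, the replicate number as a block and left-out libraries. On simulated data for this comparison with 13528 genes, the test recovered 22% of 50 genes changed 2-fold, 72% at 4-fold, 92% at 8-fold and 88% at 16-fold, and called 5 unchanged genes. Each simulated gene was drawn independently. A library that stands apart across many genes, as M3-CKO replicate 3 did, was therefore not modelled, and these figures do not cover it.

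The members and gene lists were chosen with earlier results of these data known. The text names all 9 members, Mettl3, the called genes of the complement and inducer lists, the 3 highest genes of each part of the complement list outside the members, and the 5 genes most like C1s1 with a mean of at least 5 CPM. A further gene covered by this rule is not reported here. Close copies, neighbours and cell type markers are named besides. Correlations and likeness use log2 CPM with a prior count of 2. Promoter windows and gene order come from RefSeq on GRCm38.p6, which is not the build of the counts.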

Additional observations from a re-analysis of the deposited data

How the results depend on the processing

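Serping1 and C1rl each lost their call without any 1 library other than M3-CKO replicate 3. With all 6 libraries edgeR called 393 genes in all, 1 member other than C1s1 and 1 gene of the wider complement list. Leaving out each library in turn gave 0 to 3483 genes in all, 0 to 2 members other than C1s1 and 0 to 4 genes of the wider list. The highest of each came without M3-CKO replicate 3. Without Ctrl replicate 1, 2 or 3 the count over all genes was 0, 1 and 0, with 2378, 2044 and 1963 genes at an unadjusted p under 0.05. Leaving out replicate 3 of both groups gave 2624 genes, 3 such members (Serping1, C3 and Cd55) and 4 wider genes. DESeq2 called 1402 genes in all, and the absence of a low-count filter gave 740 in all and 2 wider genes (C1rl and Masp1). Limma-voom called 0 members other than C1s1, with Serping1 at an adjusted p of 0.052.

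With the replicate number as a block 20 genes in all, 0 members other than C1s1 and 0 wider genes were called, with Serping1 at an adjusted p of 0.085 and C1rl at 0.070. The numbers were not found to pair the libraries, since the deviations of same-numbered libraries from their group means correlated at -0.026, 0.015 and -0.10. The log2 fold change of C1s1 lay between 4.84 and 5.61 over 13 alternatives, that of C1rl between 2.22 and 2.70 and that of Serping1 between 1.59 and 2.00. Cfb, which was never called, turned to 0.14 without replicate 3 of both groups. The causes of these shifts were not tested. C4b, Cfi and C2 are too low for any statement on a difference.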
